A study of Mus musculus with 4 samples.

Results

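B2 and B3 elements are short interspersed elements (SINEs), a class of repeats of which rodent genomes hold very many copies. The 4834 copies described here are the rows of the deposited repeat table whose repeat name begins with B2 or B3, out of 36284 repeat copies in that table (13.3%). They carry 5 of the 1040 names in the table: B3 with 2379 copies, B2_Mm2 with 1028, B3A with 1015, B2_Mm1t with 234 and B2_Mm1a with 178. The RNA came from mouse embryonic fibroblasts (MEFs) of the BALB/c strain at passage 2, and every culture was infected with a lentivirus. The GFP control group (2 libraries) received the virus of GFP, a fluorescent protein. The SON group (2 libraries) received that of Stella, Oct4 and Nanos2, of which Oct4 is a transcription factor of pluripotent cells and Stella and Nanos2 are proteins of the germ line. In both groups selection with 2 µg/ml puromycin began 72 hours after infection and lasted 4 days, and the cells then grew for 21 days without it. Whether a group's 2 libraries came from separate embryos or cultures, and which promoter drives the delivered genes, is not in the labels, and the virus coincides with the group. The comparison of SON with the GFP control asks whether RNA from these SINEs differed in fibroblasts that carry the 3 delivered genes.

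A SINE spreads through an RNA copy made by RNA polymerase III, which the proteins of L1 elements reverse transcribe and insert. B2 elements derive from a transfer RNA gene and keep the internal promoter that the factor TFIIIC binds, B3 elements are their older relatives, and the B2_Mm1 subfamilies are the youngest of the names seen here. In most somatic cells the elements lie in silenced chromatin, B2 RNA from RNA polymerase III rises after heat shock, and copies inside introns and untranslated regions are also transcribed by RNA polymerase II as a part of their host genes. Libraries made with an mRNA kit, as here, enrich polyadenylated RNA. A read in a B2 or B3 copy can therefore come from an element's own transcript or from a host transcript, and these cannot be told apart in the table. In bulk RNA, fewer cells that express a copy and less RNA per cell cannot be told apart either. Positions and sequences of the copies were not analysed here. Each copy is named by its repeat name and its running number, as in B3_50444.

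The repeat table held 850223 and 1119717 reads in GFP control a and b, and 565399 and 469737 in SON a and b. Values are normalized reads, the read count divided by 1 size factor per library. In the gene table, the 3 delivered genes lay between 0 and 0.594 normalized reads in the GFP control and between 295 and 449 in SON. The groups differed in depth: the GFP control libraries supplied 67.7% of all B2 and B3 reads. The library SON a stood apart in its ribosomal RNA repeats, which took 22.3% of its repeat reads, against 7.84% in SON b, 1.97% in GFP control a and 3.33% in GFP control b. All 8 fibroblast markers were tested and abundant, summing to 693555 and 414556 normalized reads in GFP control I and II and to 462453 and 396454 in SON I and II. They differed in both directions, 4 above and 4 below 0, from 0.48 for Fn1 to -1.47 for Col3a1 on the log2 scale. Col1a2 (-1.19) and Pdgfrb (-0.67) had an unadjusted p under 0.05, with limma adjusted p of 0.393 and 0.330. The authors' deposited DESeq2 adjusted p was 0.0427 for Col1a2 and 0.145 for Pdgfrb. In the lists of other cell types some markers were near 0 and others were not. The 3 macrophage markers found summed to between 117 and 319 normalized reads over the 4 libraries, with Ptprc at 22.0 or less, and the 4 epithelial ones to between 74.3 and 168, most of it Krt18. The 4 muscle markers summed to between 148 and 637, nearly all of it Des, with Myod1 at 0 in every library. The 4 endothelial markers summed to 76.8 and 118 in GFP control I and II and to 203 in both SON libraries. Cdh5 among them stayed at 8.81 or less, and Pecam1 overlapped between the groups (-0.08, limma adjusted p = 0.968). Kdr (1.34) and Tek (1.12) were higher in both SON libraries at an unadjusted p under 0.05, with limma adjusted p of 0.325 and 0.374. The part of these markers in the results on SINEs was not tested.

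B2 and B3 copies together took 9.33% and 9.56% of the repeat reads in GFP control a and b, and 7.84% and 9.45% in SON a and b. The lowest share thus belonged to the library with the most ribosomal RNA repeats. Outside the ribosomal RNA repeats the shares were 9.52% and 9.89% in the GFP control against 10.1% and 10.3% in SON, so that the order of the groups turned round. On the deposited scale the summed level was 66366 and 63673 normalized reads in GFP control a and b (65020 ± 1904, mean ± SD, n = 2) and 60216 and 65272 in SON a and b (62744 ± 3575, SD, n = 2). The groups overlapped. The log2 difference, SON minus GFP control, was -0.05 (exact permutation test over the 4 libraries, two-sided, p = 0.667, where 2 against 2 cannot go below 0.333). The gap between the 2 libraries of a group was of the same order, at -0.06 for b minus a in the GFP control and 0.12 in SON.

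The scale matters for such small differences. Over the tested copies of all repeats, the median log2 difference was -0.11 with the deposited size factors, -0.02 with TMM factors, -0.18 when divided by each library's total of repeat reads and 0.01 when divided by that total without ribosomal RNA. The summed B2 and B3 level had the opposite sign, 0.04, with TMM factors and 0.07 outside ribosomal RNA. Every signed difference on the deposited scale is to be read against that shift.

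None of the 5 names passed the test across repeat names (limma on log2 of the value plus 1, Benjamini-Hochberg adjusted p under 0.05), which called 8 of 943 names (0.848%). B2_Mm1a, a young subfamily, had 1779 and 2308 normalized reads in GFP control a and b and 1859 and 2369 in SON a and b. Its 2 libraries of a group lay farther apart than the groups did, with b above a by 0.38 on the log2 scale in the GFP control and by 0.35 in SON. The log2 difference between the groups was 0.05 (95% interval -0.35 to 0.45, limma adjusted p = 0.929). B2_Mm1t, the other young subfamily, had 2958 and 3195 normalized reads in GFP control a and b and 2537 and 3070 in SON a and b. Its groups overlapped, and the log2 difference was -0.14 (95% interval -0.47 to 0.19, limma adjusted p = 0.733).

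B2_Mm2, the older and more numerous B2 subfamily, had 14200 and 14219 normalized reads in GFP control a and b and 12816 and 14035 in SON a and b. Both SON values lay below both GFP control values, by very little in SON b, and this was the 1 name of the 5 whose groups did not overlap. The log2 difference was -0.08 (95% interval -0.33 to 0.16, limma adjusted p = 0.793), and it turned to 0.06 with TMM factors and 0.04 outside ribosomal RNA. B3, the name with the most copies, had 34904 and 32267 normalized reads in GFP control a and b and 30712 and 33223 in SON a and b. The groups overlapped, with a log2 difference of -0.07 (95% interval -0.29 to 0.15, limma adjusted p = 0.812) that turned to 0.07 with TMM factors and 0.05 outside ribosomal RNA. B3A, a subfamily of B3, had 12525 and 11684 normalized reads in GFP control a and b and 12292 and 12575 in SON a and b. Its log2 difference was 0.04 (95% interval -0.21 to 0.29, limma adjusted p = 0.923), and -0.03 without the single copy B3A_29955, which was higher in SON. The signs of the other names were no firmer: B2_Mm1a had -0.03 when divided by the total of repeat reads, as B3A had -0.04, and B2_Mm1t had 5.58e-04 with TMM factors.

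**Figure D1:**
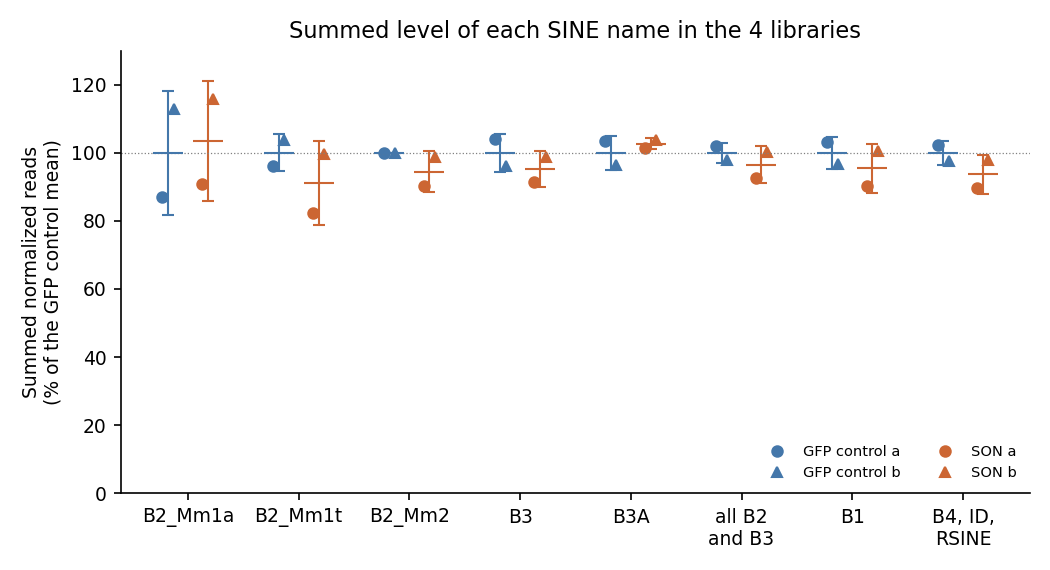
Summed normalized reads of each of the 5 B2 and B3 names, of all B2 and B3 copies, of B1 and of B4, ID and RSINE, as a percent of the mean of the 2 GFP control libraries. Points are single libraries (circles a, triangles b) and bars are the mean ± SD of the 2 libraries of a group. The libraries of a group lie farther apart for B2_Mm1a than for the other names, and the groups are apart for B2_Mm2 alone among the 5 names.

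A ratio of 2 sets of copies within a library does not depend on the size factor. It compares reads, not reads per length, and a level in one set against another is therefore not a level per copy. The B2_Mm1 names together had 7.69% and 9.46% of the reads of B2_Mm2, B3 and B3A in GFP control a and b, and 7.88% and 9.09% in SON a and b. The groups overlapped completely, and the high value in each was that of library b. The log2 difference of this ratio was -0.01 (exact permutation test, two-sided, p = 1). Against B2_Mm2 alone the B2_Mm1 names had 33.4% and 38.7% in the GFP control against 34.3% and 38.8% in SON, a log2 difference of 0.02 (exact permutation p = 0.667). Against the B3 names they had 9.99% and 12.5% in the GFP control against 10.2% and 11.9% in SON, a difference of -0.02 (exact permutation p = 1). No shift of the young B2 subfamilies against the older names was thus detectable with 2 libraries a group, where the libraries of a group lay farther apart than the groups did.

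Within the B2_Mm1 names, the ratio of B2_Mm1a to B2_Mm1t was 60.2% and 72.2% in GFP control a and b and 73.3% and 77.2% in SON a and b. The groups did not overlap, and the higher GFP control library lay close to the lower SON library. The log2 difference was 0.19 (exact permutation p = 0.333, the smallest value this design allows). The ratio of B3A to B3 was 35.9% and 36.2% in GFP control a and b and 40.0% and 37.9% in SON a and b. These groups did not overlap either, with a log2 difference of 0.11 (exact permutation p = 0.333). Without B3A_29955 the 4 values were 35.6%, 35.8%, 36.8% and 36.7%, and the log2 difference was 0.04. The groups still did not overlap (exact permutation p = 0.333). That copy was left out for its rise in SON and no copy with a fall was left out, so a smaller difference was bound to result. The ratio of B2_Mm2 to B3 was 40.7% and 44.1% in the GFP control against 41.7% and 42.2% in SON, and the SON values lay between those of the control. Over the 9 ratios computed, the Benjamini-Hochberg adjusted exact p lay between 0.75 and 1.

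**Figure D2:**
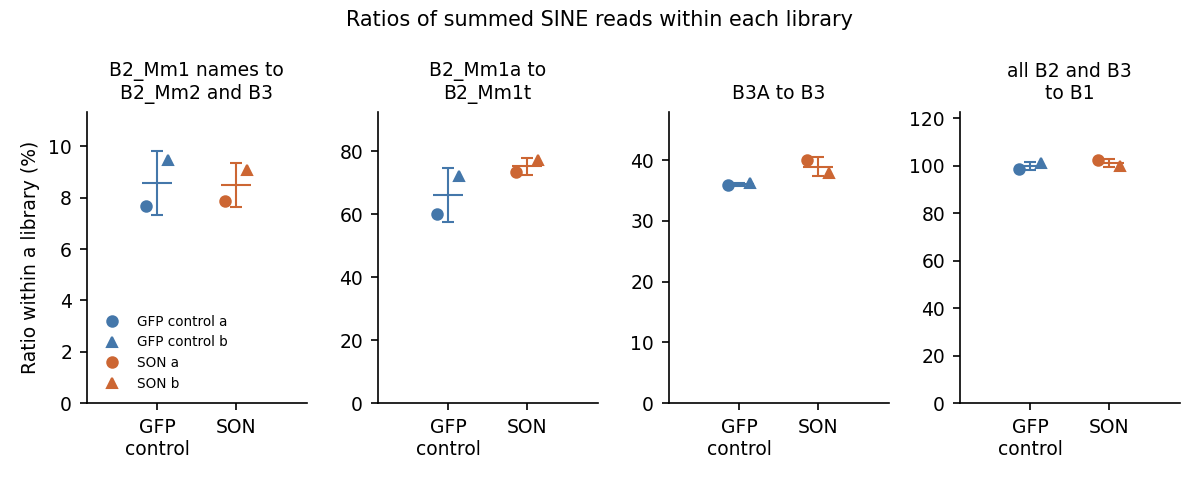
Ratio of the summed reads of 2 sets of copies within each library, in percent, for 4 pairs of sets. Points are single libraries (circles a, triangles b) and bars are the mean ± SD of the 2 libraries of a group. The groups overlap for the B2_Mm1 names against B2_Mm2 and B3 and for all B2 and B3 against B1, and do not overlap for B2_Mm1a to B2_Mm1t and for B3A to B3.

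The closest relatives in the table are the other rodent SINEs: B1, which derives from the RNA of the signal recognition particle (4759 copies), and the B4, ID and RSINE names (5056 copies). Summed B2 and B3 reads were 98.8% and 101% of the B1 reads in GFP control a and b, and 102% and 99.9% in SON a and b. The groups overlapped, with a log2 difference of 0.02 (exact permutation p = 0.667). Against B4, ID and RSINE they were 89.4% and 90.1% in the GFP control against 92.8% and 92.1% in SON. Here the groups did not overlap, with a log2 difference of 0.04 (exact permutation p = 0.333, adjusted 0.75). That difference became 0.0070 without the 10 copies of each side with the most reads, and the median over single copies differed by -0.01.

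Single copies were covered thinly. The least read copy had 21 reads in the 4 libraries together, the median copy had 34, and 480 of the 4834 had 100 or more. The 10 copies with the most reads held 28.9% of the B2_Mm1t reads (234 copies) and 22.2% of those of B2_Mm1a (178 copies). They held 15.5% for B2_Mm2 (1028 copies), 11.2% for B3A (1015) and 8.94% for B3 (2379). A set of 10 is a larger part of a name with few copies, so these shares do not rank the names by concentration. The most read copy had 351 reads in B2_Mm1a, 1415 in B2_Mm1t and 3785 in B3. A count of 0 allowed up to 3 reads, or 2.51, 1.79, 4.08 and 4.41 normalized reads in GFP control a and b and SON a and b, counting error only. Of all members, 2106 passed the filter on low counts: 77 of B2_Mm1a, 86 of B2_Mm1t, 454 of B2_Mm2, 1063 of B3 and 426 of B3A.

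No B2 or B3 copy passed the threshold in the fit across 17390 repeat copies, which called 0 of them (0%). The lowest adjusted p of a member was 0.165 (limma). At an unadjusted p under 0.05, 51 members were higher in SON (2.42% of those tested) and 97 lower (4.61%), where all tested copies gave 3.15% higher and 6.38% lower. With TMM factors the counts were 70 members higher and 72 lower, against 4.11% higher and 5.27% lower of all tested copies. The count tests on the recovered reads called 0 members by edgeR or voom and 3 by DESeq2, which called 0.581% of the tested copies. At an unadjusted p under 0.05 edgeR had 81 members upward and 85 downward, against 4.42% and 5.8% of all tested copies, and voom 89 and 32, against 5.43% and 2.75%. Those 3 are B3A_29955, B3_143086 and B3_137062. With 1 library left out the limma fit called 1 member without GFP control a, 9 without GFP control b, 85 without SON a and 99 without SON b, out of 18, 175, 876 and 1158 calls among all 17390 tested copies in the same order.

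Over all 4834 copies the median log2 difference was -0.13, and 57.0% of the copies were below 0. All 36284 repeat copies had a median of -0.15, with 57.9% below 0. By name the median was -0.00 for B2_Mm1a, -0.16 for B2_Mm1t, -0.14 for B2_Mm2, -0.12 for B3 and -0.14 for B3A. B2_Mm1a was the name with its copies spread evenly, 88 above and 90 below 0. The median was similar at every depth, from -0.11 for the 1841 members with 21 to 29 reads to -0.19 for the 150 with 200 or more. The gap between the quartiles of the differences narrowed over the same range from 1.10 to 0.60.

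Both SON values lay above both GFP control values in 705 members (14.6%, where all repeat copies gave 15.5%) and below them in 1110 (23.0%, against 24.2%). Among the 480 members with at least 100 reads, 57 lay above (11.9%, against 14.4% of all copies with that many reads) and 141 below (29.4%, against 31.0%). These shares were near those of repeats at large. Differences beyond 1 on the log2 scale were found in 299 members upward (6.19%, against 6.31% of all repeat copies) and 621 downward (12.8%, against 14.9%). The median absolute gap between libraries a and b was 0.46 in the GFP control and 0.71 in the more thinly sequenced SON group. The median absolute difference between the groups was 0.49. The gaps compare single libraries and the group difference compares means of 2 libraries, so they are not like for like.

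**Figure D3:**
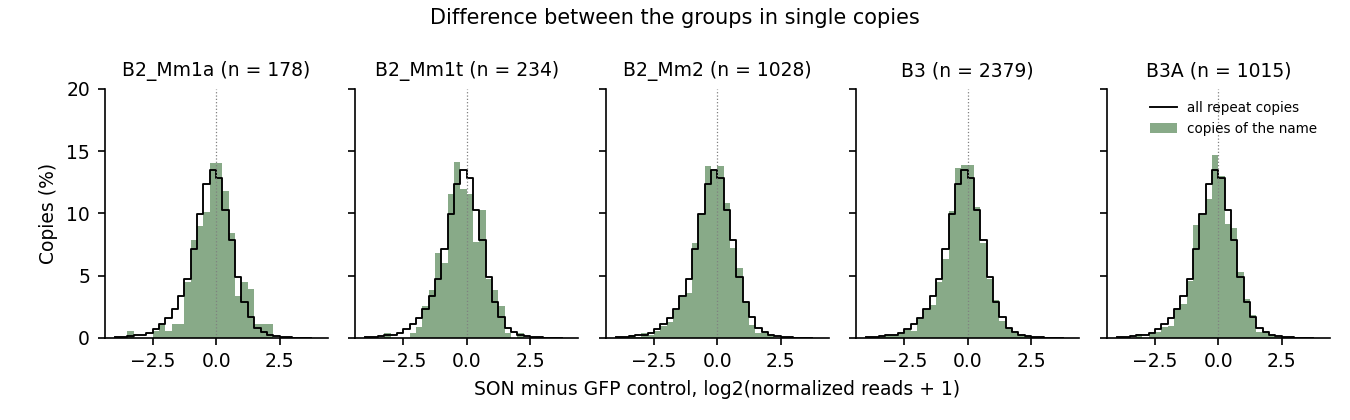
Distribution of the log2 difference, SON minus GFP control, over the copies of each name (bars, percent of copies in bins of 0.25) and over all 36284 repeat copies (line). Differences beyond 4 are counted in the outermost bins. The distributions of the 5 names lie close to that of all repeats, centred slightly below 0, and the one of B2_Mm1a is centred at -0.00.

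Copies of the B2 names leaned towards the libraries called b. Among the 178 B2_Mm1a copies, library b was above library a in both groups for 78 (43.8%) and below it in both for 27 (15.2%). B2_Mm1t copies did so in 31.2% and 19.2%, and the older B2_Mm2 copies in 29.8% and 23.2%. The shares were 24.8% and 26.1% for B3, 23.8% and 25.6% for B3A, and 25.0% and 25.8% for all repeat copies. The letters are the table's own, and no label says that the libraries of 1 letter share a culture or a day. The 2 most read B2_Mm1a copies give an example: B2_Mm1a_4616 had 35.1 and 110.1 normalized reads in GFP control a and b and 81.5 and 94.1 in SON a and b, and B2_Mm1a_5902 had 45.2 and 66.6, and 39.4 and 63.2. The next most read, B2_Mm1a_8932, had 67.8 and 57.7, and 29.9 and 33.8, with b below a in the GFP control.

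None of the 4 copies with the most reads passed the test. B3_50444, the most read member with 3785 reads, had 938.6 and 871.7 normalized reads in GFP control a and b and 944.4 and 739.6 in SON a and b. The groups overlapped, with a log2 difference of -0.11 ± 0.27 (SE, limma adjusted p = 0.918). B2_Mm2_67628 had 675.1 and 582.5 in the GFP control against 781.4 and 408.8 in SON, so that the 2 SON libraries lay on either side of the control. B3A_11678 had 334.6 and 360.0 in the GFP control against 331.6 and 283.8 in SON. B2_Mm1t_11457 had 340.5 and 363.0 in the GFP control against 256.8 and 307.3 in SON. Both of these copies were lower in each SON library than in either control library, by -0.18 and -0.32 on the log2 scale, and neither passed the test (limma adjusted p = 0.864 and 0.725). The row above B2_Mm1t_11457 is B2_Mm2_44291, the second most read B2_Mm2 copy, with 268.5 and 293.3 in the GFP control against 186.2 and 260.3 in SON, lower by a like amount, -0.35.

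B3A_29955 had the highest difference of the members with at least 100 reads whose groups did not overlap. It had 109.6 and 119.0 normalized reads in GFP control a and b, and 983.8 and 379.4 in SON a and b. Both SON libraries stood well above the control, and they differed from each other by more than 2 to 1, with SON a the higher. The log2 difference was 2.41 ± 0.43 (SE; 95% interval 1.43 to 3.39). Over the 4 libraries it missed the threshold in the fit across all copies (limma adjusted p = 0.165) and with edgeR (adjusted p = 0.257), and passed it with DESeq2 (log2 2.70, adjusted p = 2.7e-05). With 1 library left out, the difference ranged from 1.72 without SON a to 3.10 without SON b. This 1 copy made up 0.875% and 1.02% of the summed B3A level in GFP control a and b, and 8.00% and 3.02% in SON a and b. Of the 6 rows around it in the table, 4 were lower and 2 higher in SON, with a median log2 difference of -0.63. Of all repeat copies 57.9% were below 0.

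The next 4 members in that order had few reads, and none passed a test over the 4 libraries. B2_Mm1a_16168 had 7.53 and 35.7 normalized reads in GFP control a and b and 47.6 and 41.2 in SON a and b, a log2 difference of 1.35. B2_Mm1a_3568 had 5.02 and 29.8 in the GFP control against 32.6 and 30.9 in SON, a difference of 1.27. In both copies GFP control a was low and GFP control b lay close to SON, and the differences were 0.30 and 0.09 with GFP control a left out and 2.41 and 2.44 with GFP control b left out. In the same order they were 1.25 and 1.23 without SON a, and 1.46 and 1.30 without SON b. B2_Mm1t_13502 had 12.5 and 26.2 in the GFP control against 55.7 and 33.8 in SON, a difference of 1.21. This difference ranged from 0.71 to 1.71 with 1 library left out. B3_2819 had 35.1 and 22.6 in the GFP control against 51.6 and 73.5 in SON, a difference of 1.10 with an adjusted p of 0.465 (limma). The 6 rows around B3_2819 were all higher in SON, with a median of 0.40. Those around the other 3 went the other way: 5 of 6 were lower around B2_Mm1a_16168 (median -0.77) and B2_Mm1a_3568 (-0.97), and 6 of 6 around B2_Mm1t_13502 (-0.33). Of all repeat copies 57.9% were below 0.

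The 5 members with the lowest differences in that order were all B3 and B3A copies. B3_143086 had 104.6 and 18.4 normalized reads in GFP control a and b and 5.44 and 1.47 in SON a and b. The SON libraries had 4 reads and 1 read, and the 2 control libraries were far apart. Its log2 difference was -3.51 ± 0.82 (SE, limma adjusted p = 0.243; DESeq2 adjusted p = 0.0101), and it ranged from -2.29 without GFP control a to -4.73 without GFP control b. B3_137062 had 55.2 and 41.1 in the GFP control against 8.15 and 4.41 in SON, which are 6 and 3 reads. A count of 0 would allow up to 3 reads. Its log2 difference was -2.79 ± 0.46 (SE, limma adjusted p = 0.165; DESeq2 adjusted p = 0.0278). The remaining 3 were B3A_46196 with 45.2 and 25.0 against 2.72 and 10.3, B3A_59614 with 28.4 and 59.5 against 8.15 and 5.88, and B3_146426 with 27.6 and 33.9 against 0 and 17.6. The first 2 of these were low in both SON libraries, B3A_46196 at 2 and 7 reads and B3A_59614 at 6 and 4 reads. By contrast, B3_146426 had no read in SON a and more in SON b than any of the others. With 1 library left out, B3_146426 ranged from -0.76 without SON a to -4.98 without SON b. B3A_46196 ranged from -1.62 to -3.22 without the same libraries. With any 1 library left out, B3_137062 ranged from -2.41 to -3.17 and B3A_59614 from -1.89 to -2.93.

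**Figure D4:**
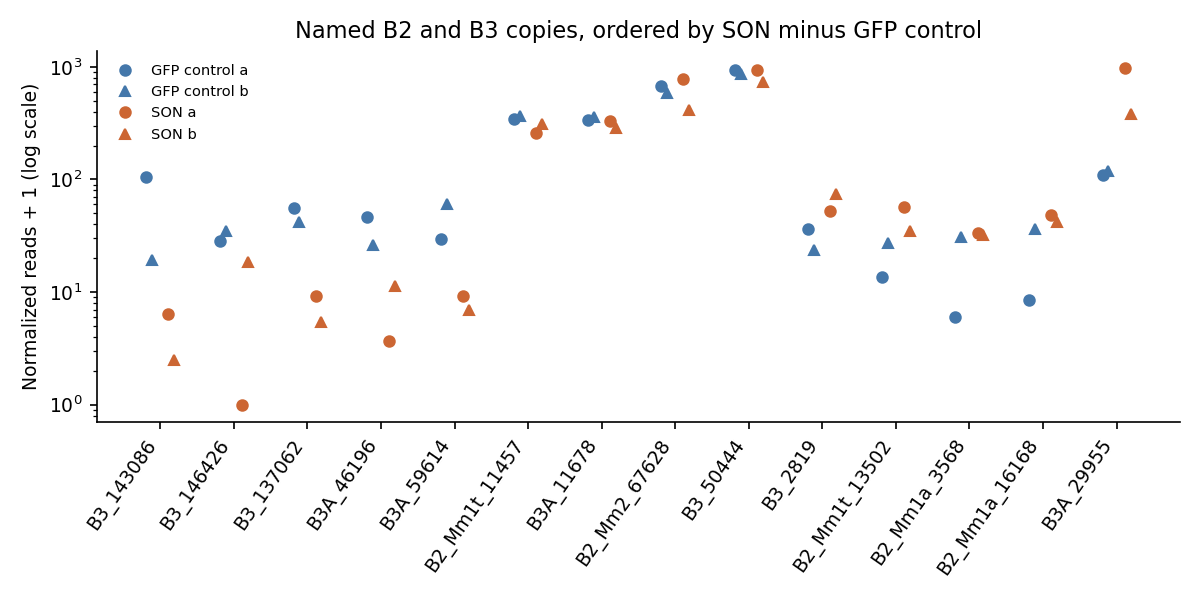
Normalized reads plus 1, on a log axis, of the 14 named copies in the 4 libraries (circles a, triangles b), ordered by the difference between the groups, lowest first. The 5 copies on the left were picked among copies with both SON values below both control values. The 5 on the right, B3A_29955 among them, were picked among copies with both above, so these separations follow from the choice. The 4 most read copies in the middle lie close together.

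Low values in SON were shared with the rows beside these copies, least so for B3_146426. Of all repeat copies 57.9% were below 0, with a median log2 difference of -0.15. Row numbers rise down the table for each of the 1040 names, so the order of the rows follows the running numbers. All 6 rows around B3_137062 were lower in SON, with a median log2 difference of -2.76. All 6 were also lower around B3A_46196 (median -2.29), B3A_59614 (-1.79) and B3_143086 (-1.66), while B3_146426 had 5 of 6 lower with a median of -0.32. Among the 4 most read members, 3 rows were higher and 3 lower around B3_50444, B2_Mm2_67628 and B3A_11678, and 5 of 6 were lower around B2_Mm1t_11457 (median -0.25).

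Across the tested members this likeness of neighbours was general. In 245 pairs of copies of 1 name with consecutive numbers, the log2 differences were correlated with Pearson's r of 0.40, and 65.7% of the pairs had the same sign. With a gap of 2 or 3 in the numbers r was 0.20 (77 pairs). It was -0.01 for gaps of 4 to 10 (102 pairs), 0.04 for 11 to 50 (400 pairs) and 0.02 beyond 50 (1277 pairs). The share of pairs with the same sign was 48.0% for gaps of 4 to 10 and 52.5% beyond 50. A tested member and the next row below it of another repeat family gave r of 0.37 (938 pairs), falling to 0.28 at the third row, 0.22 at the fifth, 0.09 at the tenth and -0.02 at the fiftieth. The differences between libraries of 1 group did the same: b minus a had r of 0.48 in the GFP control and 0.44 in SON for consecutive numbers, and 0.07 and -0.03 beyond a gap of 50. These correlations are across copies, which are not replicates and share libraries and depth, and the sources used here do not say whether a read that spans 2 copies was counted in both. The cause of this likeness was not tested.

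**Figure D5:**
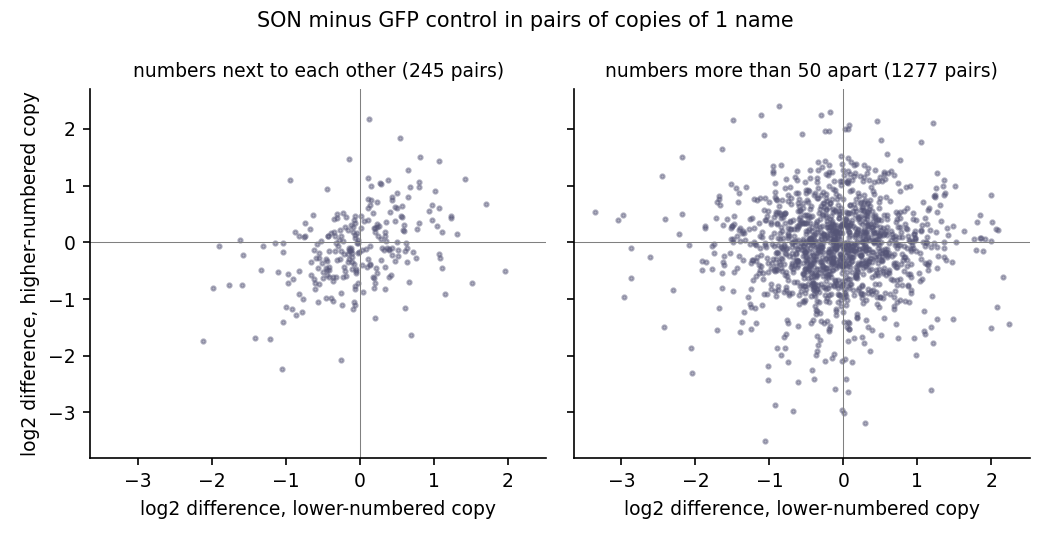
Log2 difference, SON minus GFP control, of 2 tested copies of 1 name: the lower-numbered copy on the x axis and the next tested copy on the y axis. The 245 pairs with consecutive numbers (left) lean along the diagonal, with r of 0.40, and the 1277 pairs more than 50 apart (right) form a round cloud, with r of 0.02.

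The table holds no copy with under 21 reads over the 4 libraries, so it cannot show how many copies were silent. Among the listed members, 0 were without reads in both GFP control libraries, as were 0 of all repeat copies. The deeper GFP control libraries make this likely for any listed copy. At 0 in both SON libraries were 9 members: 5 of B3, 2 of B2_Mm2, 1 of B2_Mm1a and 1 of B3A. Of all repeat copies 100 were at 0 in both SON libraries (0.276%). Each of the 9 had between 21 and 27 reads in the GFP control, and the shallower SON libraries allow 4.08 and 4.41 normalized reads at a count of 0. B3_18420, for example, had 9.20 and 9.52 normalized reads in GFP control a and b, and B2_Mm1a_6553 had 13.4 and 6.55. At this depth a lower level in SON, below those limits, could not be told from none.

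The genes known to make, silence or bind SINE RNA were taken from 5 lists, in the gene table of the same study with libraries I and II. Across 15283 tested genes the limma fit called 8 (0.0523%), the median log2 difference was -0.01, and no gene of the 5 lists was among the calls. edgeR called none of them either, and DESeq2, which called 4.07% of the tested genes, called 1, Hspb1. An unadjusted p under 0.05 was reached by 4 of the 72 list genes, 2 upward and 2 downward, against 5.99% of all tested genes upward and 6.57% downward.

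RNA polymerase III itself had 18 of 18 subunit genes tested, 11 above and 7 below 0, with a median log2 difference of 0.09. Both SON values were above both control values in 7 of them and below in 3, where 22.2% of all tested genes lay above and 23.7% below. Polr1d and Polr1c, subunits shared with RNA polymerase I, had the largest means, with 1300 and 1569 normalized reads in GFP control I and II against 1459 and 1431 in SON I and II for Polr1d. The highest difference in the list was that of Polr2l, a small subunit common to the nuclear RNA polymerases, with 177 and 209 in the GFP control against 239 and 300 in SON (0.47, limma adjusted p = 0.485). Polr3gl, one of the alternative forms of a subunit of RNA polymerase III, had 301 and 307 in the GFP control against 206 and 250 in SON (-0.42, limma adjusted p = 0.485). Polr3a, the largest subunit, had 729 and 865 in the GFP control against 1016 and 1058 in SON, groups that did not overlap (0.38, limma adjusted p = 0.416), and is named here after its values were seen.

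Among the 11 genes of initiation and regulation 4 were above and 7 below 0, with a median of -0.02. Both SON values were above the control in 2 and below it in 3, against 22.2% and 23.7% of all tested genes. Gtf3c1, the subunit of TFIIIC that binds the B box, had 3249 and 3589 normalized reads in GFP control I and II and 4500 and 6221 in SON I and II. Both SON libraries were higher, and SON II the highest, with a log2 difference of 0.63 ± 0.20 (SE, limma adjusted p = 0.332). Gtf3c5, another subunit of TFIIIC, had 1242 and 1102 in the GFP control against 836 and 896 in SON, lower in both SON libraries (-0.43, limma adjusted p = 0.360). Ssb, the La protein that binds the ends of RNA polymerase III transcripts, had the second largest mean, with 3456 and 3184 in the GFP control against 2838 and 2591 in SON (-0.29, limma adjusted p = 0.476). Subunits of 1 complex thus lay on both sides of the control, and no difference passed the test.

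Of the 20 genes of chromatin silencing, 11 were above and 9 below 0, with a median of 0.05. Both SON values were above the control in 0 and below it in 2, against 22.2% and 23.7% of all tested genes. Chd4, a remodelling enzyme, and Trim28, a corepressor that recruits histone methylation, had the largest means. Chd4 had 7954 and 8164 normalized reads in the GFP control against 7956 and 8015 in SON. Trim28 had 5666 and 5676 in the GFP control against 6514 and 5093 in SON, on either side of the control. Suv39h2, a histone methyltransferase, had the highest difference, with 54.3 and 76.1 in the GFP control against 158 and 45.5 in SON (0.40, limma adjusted p = 0.844), with SON I alone above the control. Dnmt3b, a DNA methyltransferase, had the lowest difference, with 45.9 and 28.5 in the GFP control against 30.0 and 17.6 in SON (-0.63, limma adjusted p = 0.631), and its groups overlapped.

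Of the 12 heat shock genes 9 were above and 3 below 0, with a median of 0.21. Both SON values were above the control in 6 and below it in 1, against 22.2% and 23.7% of all tested genes. Hspa8, the constitutive Hsp70 protein and the gene of the largest mean, had 17470 and 22462 normalized reads in the GFP control against 23408 and 23273 in SON. Hsp90aa1, the inducible Hsp90, had 13392 and 15614 in the GFP control against 10553 and 15718 in SON. Hspb1, a small heat shock protein, had 1218 and 1553 in the GFP control against 3563 and 2189 in SON, the highest difference of the list. Both SON libraries were higher, by 1.02 ± 0.28 on the log2 scale (SE, limma adjusted p = 0.281), and the authors' deposited table gives it an adjusted p of 0.0366. Hsph1, a relative of Hsp70, had the lowest difference, with 5673 and 8163 in the GFP control against 5108 and 5513 in SON (-0.36, limma adjusted p = 0.559).

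Proteins that bind the double-stranded RNA of inverted SINE copies had 11 genes tested, 6 above and 5 below 0, with a median of 0.01. Both SON values were above the control in 0 and below it in 4, against 22.2% and 23.7% of all tested genes. Nono, a nuclear protein of paraspeckles, and Dhx9 had the largest means, and Matr3, a protein of the nuclear matrix, came next. Nono had 6146 and 6275 normalized reads in the GFP control against 6835 and 5597 in SON. Dhx9 had 5421 and 5518 in the GFP control against 6031 and 4997 in SON. Matr3 had 6165 and 5400 in the GFP control against 5267 and 4911 in SON. Adarb1, an enzyme that edits adenosine to inosine, had the lowest difference, with 1645 and 735 in the GFP control against 676 and 220 in SON (-1.51, limma adjusted p = 0.423), and the libraries of each group were far apart. Adar, the more abundant editing enzyme, had 3279 and 2786 in the GFP control against 2134 and 1845 in SON, with a log2 difference of -0.61 ± 0.16 (SE, limma adjusted p = 0.279). Stau2, which transports RNA, had the highest difference, 0.14 (limma adjusted p = 0.820).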

How the data were processed

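The RNA-seq of 4 libraries, 2 of MEFs with the GFP control virus and 2 with the SON virus, was used as 2 deposited tables. The submitters' processing notes list 2 aligners, STAR 2.4.0j and TopHat2 2.0.11, the counters HTSeq 0.5.3p3 and featureCounts (Subread), the base caller CASAVA 1.8.1, and DESeq2, on GRCm38 (mm10). They do not tie a tool to a table. The counting of multi-mapping reads is not stated in those notes or the headers, and reads in copies of near-identical sequence are uncertain for that reason. The deposited repeat and gene values are a signal, reads that the authors divided by 1 size factor per library (1.20 and 1.68 for GFP control a and b, 0.736 and 0.680 for SON a and b in the repeat table). Whole reads were recovered for 100% of the values within 0.01 read. Per the file headers the gene table also holds the authors' DESeq2 log2 fold change with its standard error, a Wald score and p-values, of which only the adjusted p-value is given. Gene totals were 28924700 and 37097571 reads in GFP control I and II and 17365551 and 14680865 in SON I and II.

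The main test was limma 3.58.1 with a mean trend (R 4.3.3) of log2 values after adding a pseudocount of 1, two-sided, after filterByExpr of edgeR 4.0.16, with p-values adjusted over 17390 copies, 943 names or 15283 genes. Summed levels and ratios were compared with exact permutation tests over the libraries. No label gives the 2 libraries of a group as separate cultures, so a p-value measures the spread of these libraries, which may be technical. Repeat columns name the group and a letter that no label joins to the numerals I and II, so they were used by group. The names, the neighbouring rows and the gene lists were chosen with earlier results of these data known. Named copies are those called, the 4 with the most reads, and the 5 highest and 5 lowest differences among copies with at least 100 reads and separate groups. In each gene list the 2 largest means and the highest and lowest difference are named, and Matr3 as well. Polr3a, Adar, B2_Mm2_44291 and the B2_Mm1a copies and silent copies given as examples were singled out after their values were seen. Alternatives were other pseudocounts, filters, scaling with TMM or by the repeat read total, edgeR, DESeq2 1.42.0 and voom on the recovered reads, and each library left out. The scaling without ribosomal RNA repeats (and voom for genes) was added after seeing the data. The scripts were tested on simulated data.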

Additional observations from a re-analysis of the deposited data

How the results depend on the processing

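No B2 or B3 name passed the test under any of the 16 alternatives run. For single copies, 11 alternatives also called 0 members, and DESeq2 called 3. Leaving out 1 library, which leaves a lone library assumed to vary like the other group, called between 1 and 99 members: 1 without GFP control a and 9 without GFP control b (of 18 and 175 among all copies), 85 (35 higher, 50 lower) without SON a and 99 (22 higher, 77 lower) without SON b, where all copies gave 240 higher and 636 lower without SON a and 193 and 965 without SON b. The cause was not tested. For genes of the 5 lists DESeq2 called 1 and the other 10 alternatives 0.

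Signs of the small differences depended on the scale. B2_Mm2 was 0.057 (TMM), 0.037 (without ribosomal RNA), 0.047 (edgeR TMM), 0.032 (edgeR RLE), 0.032 (DESeq2) and 0.039 (voom), and B3 was 0.069, 0.049, 0.060, 0.045, 0.045 and 0.060 in that order. B2_Mm1t was 5.58e-04 with TMM. Divided by the library's total of repeat reads, B2_Mm1a was -0.031 and B3A -0.042; with 1 library left out they ranged from -0.14 to 0.24 and from -0.011 to 0.090. B3_50444 was 0.0060 without ribosomal RNA, 0.0015 with edgeR RLE and 0.0015 with DESeq2, and from -0.29 to 0.062 with 1 library left out. B2_Mm2_67628 was 0.022, 0.040 and 0.040 with edgeR TMM, edgeR RLE and DESeq2, and from -0.62 to 0.32 with 1 library left out. The summed level was 0.036 with TMM and 0.068 without ribosomal RNA, and ranged from -0.11 to 0.0059 with 1 library left out. The B2_Mm1 ratio to B2_Mm2 and B3 was 0.023 as the median over copies, 0.060 without the 10 most read copies and 0.021 against B2_Mm2 alone, and ranged from -0.16 to 0.14 with 1 library left out. The ratio to B1 was -0.0053 without the 10 most read copies and ranged from -0.0012 to 0.035 with 1 library left out. The ratio to B4, ID and RSINE was -0.014 as the median over copies, 0.0070 without the 10 most read copies and 0.090 over copies with at least 100 reads.

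No paired analysis was run for the repeat table, because its columns carry letters that no label joins to a replicate number. In the gene table the numerals share only a number: the deviations of same-numbered libraries had r = 0.22 over 15283 genes with 2 pairs, and with the replicate block 0 list genes were called. Depth is a limit for single copies, with a median of 34 reads over 4 libraries.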
